A study of Mus musculus with 6 samples.

Results

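Aminoacyl-tRNA synthetases are the enzymes that attach each amino acid to its transfer RNA. The members described here are the 36 symbols of a fixed list of these enzymes that are rows of the deposited count table, out of 24062 rows in all. They comprise 20 cytosolic enzymes and 16 mitochondrial ones, the latter with symbols ending in 2, and all 36 passed the filter on low counts, as did 15742 genes in all. The data are 6 RNA-seq libraries, each from Kit-positive bone marrow cells of 1 C57BL/6 mouse, purified by sorting for a receptor carried by blood stem cells and early progenitors. The 3 KO mice were Mx1Cre+ with floxed alleles of Ints11, which encodes the endonuclease subunit of the Integrator complex, and the 3 wild-type (WT) mice were their littermates. All 6 were sampled 4 days after poly(I:C), an RNA mimic that induces interferon and through it the Mx1 promoter. Mx1-Cre therefore acts in every cell that responds to interferon, not in blood progenitors alone, and the sources used here do not say whether the WT mice carried Cre or how old the mice were. The comparison asks which messenger RNAs differ between progenitors with and without the Ints11 deletion.

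Cytosolic synthetases supply charged transfer RNA to the ribosomes of the cytosol. Of these enzymes 8 sit in the multisynthetase complex, a large particle held together by 3 scaffold proteins. Mitochondrial synthetases are made from nuclear genes, enter the organelle and charge the transfer RNAs encoded by mitochondrial DNA. Kars and Gars each make both forms from 1 gene, so they stand in the cytosolic group but also serve mitochondria. Dividing blood progenitors have a high demand for protein synthesis. In many cell types the cytosolic synthetase genes are known targets of ATF4, the transcription factor of the amino acid stress response, which binds the C/EBP-ATF composite element.

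Library totals ran from 124074531 to 166860739 counts, and the lowest count of any member in any library was 788, for which counting error alone is 3.56%. Ints11, listed as Cpsf3l, fell from 81.7 ± 9.59 to 60.96 ± 3.08 CPM (mean ± SD, n = 3 each; adjusted p = 0.0174, quasi-likelihood test of edgeR). CPM is the count relative to the TMM-scaled library total, and all levels and their SDs below are on this scale with n = 3 mice per genotype. Kit itself was at 211 ± 11.5 CPM in WT and 228 ± 9.28 CPM in KO libraries. The WT libraries were spread in their level of mature neutrophil genes (12 genes, mean log2 CPM). WT_343 held 7.93, WT_344 between the others 8.82 and WT_341 9.63, and the KO libraries held 9.88 to 10.2. The summed level of that list was 11428 to 36247 CPM in WT and 43755 to 57454 CPM in KO libraries, with 4 of 12 genes called higher, 0 called lower and none at 0.

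The promoter windows were examined first for letters that the members share. RefSeq windows on GRCm38.p6 (250 bases before and 50 after each start) were found for 27 members, 13 cytosolic and 14 mitochondrial. None was found for Cars, Hars, Lars, Nars, Rars, Vars, Wars, Hars2 and Pars2. The composite element, searched as TGATGNAA on both strands, was present in 5 of 13 cytosolic windows (Aars, Gars, Iars, Tars and Yars) and in 0 of 14 mitochondrial ones, against 4.51% of 27025 genes with a window. The core of the element of NRF1, a factor known for genes of mitochondrial proteins, was searched as GCGCATGC on both strands. It was present in 0 of 13 cytosolic and in 3 of 14 mitochondrial windows (Rars2, Vars2 and Wars2), against 3.05% of all genes. The ETS motif CCGGAAGT was in 2 cytosolic windows (Farsa and Mars) and 1 mitochondrial window (Rars2), against 4.31%, and the E-box CACGTG in 4 (Aars, Farsb, Iars and Tars) and 1 (Ears2), against 8.09%. A match is only a match of letters and does not show binding.

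The matches present in windows of 1 group only follow in the direction of each gene, with the matched letters in capitals. TTGCATCA and TTTCATCA are the composite element read from the other strand, and GCATGCGC is the NRF1 core read from the other strand. No composite element overlaps another searched motif in these windows. The line for Vars2 holds a second NRF1 core in lower case near its end, which is also a match.
Aars, chr8:111033700-111033767, forward strand: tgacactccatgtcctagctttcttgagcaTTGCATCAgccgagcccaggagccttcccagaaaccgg
Aars, chr8:111033840-111033869, forward strand: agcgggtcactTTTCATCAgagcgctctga
Gars, chr6:55037941-55038000, forward strand: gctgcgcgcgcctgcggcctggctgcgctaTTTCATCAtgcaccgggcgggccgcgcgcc
Iars, chr13:49682126-49682155, forward strand: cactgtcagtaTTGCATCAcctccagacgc
Tars, chr15:11399659-11399703, reverse strand: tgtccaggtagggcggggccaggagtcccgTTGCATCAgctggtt
Yars, chr4:129189895-129189924, forward strand: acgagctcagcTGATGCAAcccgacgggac
Rars2, chr4:34614876-34614943, forward strand: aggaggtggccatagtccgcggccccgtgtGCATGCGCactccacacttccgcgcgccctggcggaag
Vars2, chr17:35667601-35667668, reverse strand: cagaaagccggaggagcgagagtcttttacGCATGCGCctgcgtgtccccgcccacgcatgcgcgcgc
Wars2, chr3:99140996-99141063, forward strand: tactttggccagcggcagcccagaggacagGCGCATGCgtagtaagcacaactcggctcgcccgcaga

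All 20 cytosolic synthetase genes fell in the KO libraries, and 9 of the 16 mitochondrial ones did. No member rose. These 29 of 36 calls at an adjusted p of 0.05 (edgeR's quasi-likelihood test, Benjamini-Hochberg adjustment over all tested genes) compare with 19.9% of all tested genes called lower and 35.9% called in either direction. The median log2 change was -0.69 for cytosolic genes (range -0.995 to -0.43) and -0.46 for mitochondrial genes (range -0.93 to -0.08), against 0.01 for all tested genes. Every KO library lay below every WT library for 32 members, all 20 cytosolic and 12 mitochondrial, against 28.4% of all tested genes. Strongly expressed genes were called lower more often in this comparison, 36.2% of those with a mean of at least 50 CPM. Of the 23 members at that level, 22 were called. In bulk libraries a lower share of cells that express a gene and less of its RNA per cell cannot be told apart.

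**Figure D1:**
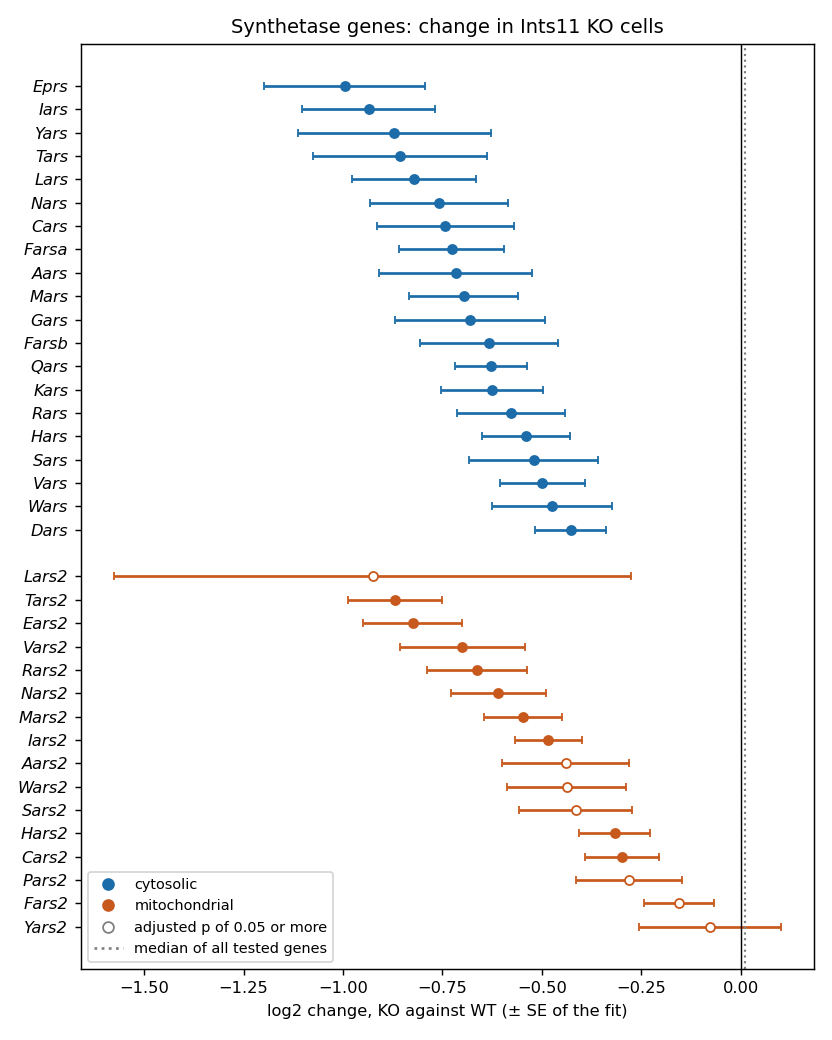
Log2 change in KO against WT with the standard error of the fit (horizontal axis) for each of the 20 cytosolic and 16 mitochondrial members, ordered by change. Filled points passed an adjusted p of 0.05; all 36 lie below 0, and the open points are 7 mitochondrial genes.

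The enzymes of the multisynthetase complex were led by Eprs, the fused glutamyl- and prolyl-tRNA synthetase (chromosome 1, 185363044 to 185428360, forward strand, GRCm38). Single WT libraries held 326 (WT_341), 601 (WT_343) and 416 CPM (WT_344) of Eprs and KO libraries 219.7, 225 and 229 CPM (KO_339, KO_340 and KO_345, in which order KO values are given throughout). All KO libraries lay below the lowest WT library and close together, and WT_343 was the highest. The fitted log2 change of Eprs was -0.995 ± 0.20 (SE; adjusted p = 0.0114, edgeR). Iars, the isoleucyl enzyme (chromosome 13, 49682100 to 49734267, forward strand), held 157, 245 and 182 CPM in WT and 92.4, 98.7 and 114 CPM in KO libraries. It fell by 0.94 ± 0.17 (SE) on the log2 scale, without overlap of the groups. Lars, the leucyl enzyme, whose protein also takes part in leucine sensing for mTORC1, held 171, 259.7 and 178 CPM in WT and 116, 114 and 114 CPM in KO libraries, again without overlap.

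The other members of the complex changed less. Mars (methionine) fell from 138 ± 28.1 to 84.95 ± 1.61 CPM, Kars (lysine) from 217 ± 40.2 to 141 ± 1.35 CPM and Rars (arginine) from 122 ± 23.9 to 81.5 ± 1.37 CPM. Qars, the glutaminyl enzyme (chromosome 9, 108507706 to 108515941, forward strand), held 147, 181 and 158 CPM in WT and 103, 104 and 108 CPM in KO libraries. Its log2 change of -0.63 ± 0.09 (SE) had the smallest adjusted p of the cytosolic members, 0.00451 in edgeR. Dars (aspartate) showed the smallest log2 change of the cytosolic members, -0.43 ± 0.09 (SE), from 245 ± 26.3 to 183 ± 2.28 CPM. The 8 enzymes of the complex had a median log2 change of -0.66 and the 12 cytosolic enzymes outside it one of -0.70, so the complex did not stand out. Its 3 scaffold genes also fell. Aimp1 went from 61.5 ± 8.47 to 40.7 ± 0.102 CPM, Aimp2 from 28.3 ± 6.69 to 18.97 ± 0.883 CPM and Eef1e1 from 27.5 ± 8.15 to 14.8 ± 1.08 CPM.

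Among the free cytosolic enzymes the largest log2 changes were those of Yars (tyrosine, -0.87 ± 0.24, SE) and Tars (threonine, -0.86 ± 0.22). Yars held 71.5, 144 and 86.5 CPM in WT and 50.01, 55.1 and 60.3 CPM in KO libraries, and Tars 93.05, 180.2 and 116 CPM in WT and 69.6, 74.7 and 71.0 CPM in KO libraries. In both, WT_343 was far above the other WT libraries. Without WT_343 the log2 changes were -0.52 for Yars and -0.55 for Tars, and that of Farsa (-0.61) was then larger than either. Nars (asparagine) fell from 338.6 ± 91.1 to 200.2 ± 7.20 CPM, Cars (cysteine) from 81.1 ± 21.5 to 48.5 ± 1.29 CPM and Aars (alanine) from 185 ± 57.2 to 113 ± 3.27 CPM. The subunits of the phenylalanyl enzyme, an α2β2 tetramer in the cytosol, went down together: Farsa by 0.73 ± 0.13 and Farsb by 0.63 ± 0.17 (SE) on the log2 scale.

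Gars (glycine) fell from 218 ± 66.3 to 136 ± 4.26 CPM and Hars (histidine) from 114 ± 17.2 to 78.2 ± 1.805 CPM. Vars, the valyl enzyme that binds elongation factor 1, held 297, 369 and 377 CPM in WT and 235, 245 and 259 CPM in KO libraries, and was the only cytosolic member highest in WT_344. Its log2 change was -0.50 ± 0.11 (SE), that of Sars (serine) -0.52 ± 0.16 and that of Wars (tryptophan) -0.47 ± 0.15, the smallest outside the complex. Wars is known to be induced by interferon gamma, and its single libraries held 55.8, 86.7 and 67.8 CPM in WT and 49.7, 49.6 and 52.1 CPM in KO. The adjusted p-values of Sars and Wars, 0.0415 and 0.0440 in edgeR, were the largest of the cytosolic members. Both calls were lost when libraries were scaled by upper quartiles or by their totals alone. They were also lost on omission of WT_344 or of any single KO library. Of 14 alternative fits, Sars was called in 5 and Wars in 3. Enzymes of the structural class I (10 cytosolic genes, with Eprs, which joins domains of both classes) had a median log2 change of -0.72 and those of class II (10 genes) one of -0.66.

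**Figure D2:**
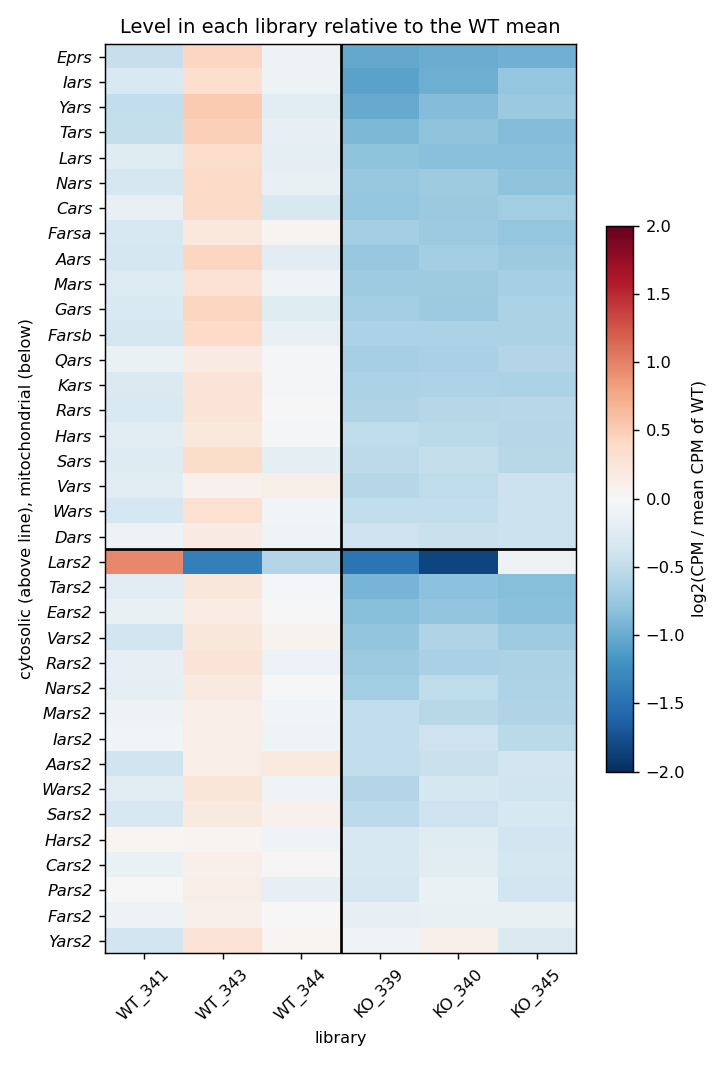
Level of each member (rows) in each library (columns) as log2 of its CPM over the WT mean, with cytosolic genes above and mitochondrial genes below the line. The KO columns are blue for all cytosolic genes, WT_343 is the reddest WT column in most rows, and Lars2 follows neither genotype, with 258 CPM in WT_341 and 37.3 CPM in KO_340.

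Mitochondrial synthetases were expressed at lower levels and changed less evenly. Per kilobase of annotated exon, WT levels ran from 1.92 ± 0.319 CPM per kb for Wars2 to 12.97 ± 1.10 for Iars2, and those of cytosolic genes from 12.3 ± 3.27 for Cars to 77.8 ± 20.9 for Nars. The exon length joins the exons of all annotated transcripts of a gene (18102 bp for Eprs), so these levels depend on the annotation. Iars2, Rars2 (12.5 ± 2.07 CPM per kb), Lars2 (11.97 ± 9.94), Tars2 (11.1 ± 1.78) and Yars2 (9.08 ± 2.00) were within 1 SD of Cars, and the mean WT level per kilobase of the other mitochondrial members was lower. Tars2 (chromosome 3, 95739976 to 95760206, reverse strand) held 66.2, 90.5 and 74.9 CPM in WT and 40.5, 43.5 and 42.8 CPM in KO libraries. Its log2 change of -0.87 ± 0.12 (SE) had the smallest adjusted p of all members, 0.00397 in edgeR. Ears2, the mitochondrial glutamyl enzyme, which charges both its own and the glutamine transfer RNA, held 9.46, 11.6 and 10.5 CPM in WT and 5.84, 6.08 and 5.90 CPM in KO libraries, a log2 change of -0.83 ± 0.12 (SE).

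Another 7 mitochondrial genes fell by smaller amounts. The log2 changes were -0.70 for Vars2, -0.66 for Rars2, -0.61 for Nars2, -0.55 for Mars2, -0.48 for Iars2, -0.32 for Hars2 and -0.30 for Cars2. Iars2, the most abundant of them, went from 115 ± 9.78 to 82.4 ± 3.68 CPM, and Mars2 from 27.7 ± 2.42 to 18.97 ± 0.800 CPM. The call of Cars2 (adjusted p = 0.0420, edgeR) was lost without any single library but WT_341, and that of Hars2 (0.0297) without WT_343 or any single KO library. Both were also lost under either of those other scalings.

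The remaining 7 mitochondrial members did not pass. Aars2 (log2 change -0.44 ± 0.16, SE), Sars2 (-0.41 ± 0.14) and Wars2 (-0.44 ± 0.15) had adjusted p-values of 0.0664, 0.0566 and 0.0547 in edgeR, and all 3 passed with DESeq2. Pars2 had a log2 change of -0.28 ± 0.13 and Fars2, a monomer unlike its cytosolic counterpart, one of -0.16 ± 0.09. Fars2 held 26.3, 30.4 and 28.1 CPM in WT and 25.3, 25.4 and 25.4 CPM in KO libraries, so the groups lay close but did not overlap. Yars2 (chromosome 16, 16302965 to 16309640, forward strand) had the smallest log2 change of all members, -0.08 ± 0.18, with 21.9, 34.4 and 29.5 CPM in WT and 27.2, 30.7 and 23.4 CPM in KO libraries. Lars2 held 258, 51.3 and 88.9 CPM in WT and 48.4, 37.3 and 123.9 CPM in KO libraries. Its log2 change of -0.93 came with an SE of 0.65, and its highest WT library was 5 times its lowest, a spread no other member showed. Without WT_341 the log2 change of Lars2 was -0.01.

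The contrast between compartments was then taken within each library, where the scaling cancels. Of 13 amino acids with 1 cytosolic and 1 mitochondrial gene, the log2 ratio of cytosolic to mitochondrial CPM was lower in KO libraries for 9, with a median change of -0.12. Groups did not overlap for 2 of the 13 pairs. The ratio of Yars to Yars2 went from 1.78 ± 0.266 to 1.03 ± 0.293 and that of Cars to Cars2 from 0.986 ± 0.311 to 0.571 ± 0.0929 (log2 units, SD, n = 3 each). By a two-sided exact permutation test p was 0.10 for both, the smallest this design allows, and 0.557 after Benjamini-Hochberg adjustment over the 13 pairs. By contrast Tars and Tars2 changed by -0.86 and -0.87 and Rars and Rars2 by -0.58 and -0.66, and their ratios moved by 0.06 and 0.09. Vars fell less than Vars2 (log2 changes -0.50 and -0.70). Over all members the mean log2 CPM of cytosolic minus that of mitochondrial genes was 2.42 ± 0.224 in WT and 2.25 ± 0.0306 in KO libraries, with overlapping groups. Without Lars2 it was 2.55 ± 0.149 and 2.35 ± 0.0544, and every KO library (2.29 to 2.396) lay below every WT library (2.45 to 2.72). The contrast rested largely on WT_343: without that library the change went from -0.17 to -0.05 over all members and from -0.19 to -0.11 without Lars2.

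**Figure D3:**
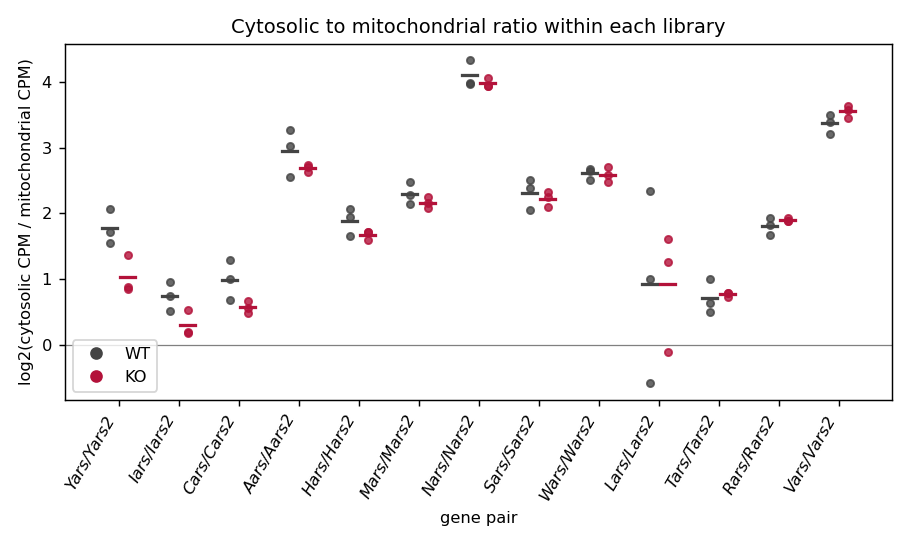
Log2 ratio of cytosolic to mitochondrial CPM (vertical axis) in single WT (grey) and KO (red) libraries for 13 amino acids, with group means as bars. Groups separate for Yars/Yars2 and Cars/Cars2 only, and Lars/Lars2 spreads from -0.59 to 2.34 in WT.

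Spread differed between the genotypes. The median coefficient of variation of cytosolic genes was 23.8% over WT and 2.68% over KO libraries, against 14.7% and 8.02% for all tested genes. WT_343 was the highest of the 6 libraries for 19 of 20 cytosolic and 14 of 16 mitochondrial genes, as it was for 4920 of all 15742 tested genes. Its level over the mean of the other WT libraries was 1.09 (Vars) to 1.83 (Yars) for cytosolic genes, with a median of 1.47, and had a median of 1.16 for mitochondrial genes. The 5 cytosolic genes with a composite element in the window had a median excess of 1.64 in WT_343 and a median log2 change of -0.86. For the 8 cytosolic genes whose window held none these values were 1.35 and -0.63, a difference for which no test was made. Without WT_343 the median log2 changes were -0.52 and -0.51, close to each other. Without WT_343, 19 of 20 cytosolic genes (all but Wars) and 7 of 16 mitochondrial genes were called lower, with median log2 changes of -0.50 and -0.40. Besides Yars and Tars, the log2 changes of Aars (-0.44), Farsb (-0.40), Gars (-0.41), Sars (-0.30) and Wars (-0.30) shrank by over 1.5 times without this library.

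Some genes of the amino acid stress response other than synthetases also fell. Of 22, 9 were called lower and 0 higher, with a median log2 change of -0.73. Among all tested genes 19.9% were called lower, and 36.2% of those with a mean of at least 50 CPM. The median WT level of the 22 genes was 51.6 CPM, so their count lay near the latter share. Shmt2, the mitochondrial serine hydroxymethyltransferase, fell from 197 ± 66.9 to 84.9 ± 3.44 CPM, Aldh18a1 of proline synthesis from 126 ± 45.6 to 57.6 ± 6.45 CPM, and the serine synthesis genes Phgdh from 238 ± 82.1 to 126 ± 3.59 CPM and Psat1 from 199 ± 89.4 to 92.1 ± 5.06 CPM. WT_343 was the highest of the 6 libraries for 19 of these 22 genes. The mean log2 CPM of the list was 4.997 in WT_341, 5.91 in WT_343 and 4.989 in WT_344. In KO_339, KO_340 and KO_345 it was 4.818, 4.765 and 4.827. Every KO library thus lay below every WT library, but WT_341 and WT_344 lay much nearer to the KO libraries than to WT_343. The fall of the list therefore rested largely on WT_343. The next 4 genes were chosen after their values were seen. Asns, the asparagine synthetase, held 90.3, 179 and 88.2 CPM in WT and 66.2, 58.8 and 47.6 CPM in KO libraries, and Atf4 303, 392 and 272 CPM against 248, 240.2 and 215 CPM; both fell. Trib3 held 11.2 CPM in WT_343 and 0.888 to 1.74 CPM in the other 5 libraries. Sesn2, which is also a p53 target, held 8.76, 26.1 and 10.63 CPM in WT and 28.1, 30.7 and 32.8 CPM in KO libraries and did not pass (adjusted p = 0.0736, edgeR).

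Other genes that handle transfer RNA or feed the ribosome were taken from lists of their own. All 6 cytosolic elongation factor genes fell, Eef1d from 189 ± 42.3 to 104 ± 2.03 CPM, Eef1b2 from 543 ± 87.4 to 366 ± 4.22 CPM, Eef1g from 716 ± 149 to 453 ± 10.999 CPM and Eif5a from 898 ± 121 to 632 ± 25.97 CPM. Of 9 genes for editing, deacylation and transport of transfer RNA 6 fell and 0 rose, among them the editing factors Prorsd1 (log2 change -0.69) and Aarsd1 (-0.67), the D-aminoacyl-tRNA deacylase Dtd2 (-0.65) and the nuclear export receptor Xpot (-0.80). On the mitochondrial side, 6 of 9 tested translation factors fell and 0 rose, among them the initiation factor Mtif2 (log2 change -0.58), the ribosome recycling factor Mrrf (-0.57) and the elongation factors Tufm (-0.67) and Tsfm (-0.56). Of the 4 partners of mitochondrial charging, Pet112 (now Gatb, -0.53) and Mtfmt (-0.48) fell, while Qrsl1 (-0.22) and Gatc (-0.01) did not pass. In the selenocysteine pathway Sepsecs (-0.52) and Secisbp2 (-0.33) fell and 2 genes did not pass. RNA polymerase III, which transcribes transfer RNA genes, had 5 of 14 listed genes lower and 0 higher, among them Polr3e (-0.72), Polr3gl (-0.56), Polr3c (-0.52) and Polr3b (-0.32). In all, 39 of 71 tested genes on these lists that are not members were called lower and 0 higher, against 19.9% lower among all tested genes.

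Markers of cell types differed between the genotypes beside the synthetases. Early granulocyte-monocyte genes were lower (5 of 5 called, summed level 16241 to 22030 CPM in WT and 8235 to 10078 CPM in KO libraries), and 5 of 6 stem cell genes were higher (76.99 to 87.5 against 135 to 193 CPM). Monocyte and macrophage genes were lower in sum (3 of 5 called lower, 1294 to 1530 against 873 to 1006 CPM). The sum of 5 T and NK cell genes (263 to 294 against 188 to 219 CPM) was lower only through Nkg7. That gene was called lower, at 276 ± 15.7 against 197 ± 17.4 CPM. Cd3e, Cd3g, Cd8a and Klrb1c, at 0.141 to 1.33 CPM in WT, had log2 changes of 1.27, 2.17, 1.15 and 0.96. Of these only Cd3g was called, as higher. Megakaryocyte genes (2 of 5 called higher, 36.9 to 58.2 against 89.3 to 132 CPM) and mast cell and basophil genes (3 of 4, 91.7 to 119 against 137 to 208 CPM) were higher. Stromal and endothelial genes were at 81.3 to 93.5 against 93.8 to 169.5 CPM, with 2 of 5 called higher, among them the collagen gene Col1a1 at 1.86 ± 0.450 against 18.8 ± 10.7 CPM. Sums of erythroid genes (1 of 6 called lower) and B cell genes (0 of 6 called) overlapped. No listed marker was at 0 in all libraries. The part of these shifts in the synthetase result was not tested. Mature neutrophil genes ran against the synthetases among the WT libraries, as both the lowest neutrophil level and the highest synthetase level were those of WT_343. WT_341 had a neutrophil level near that of the KO libraries (the KO mean was higher by 0.37 log2 units), and the KO mean of the cytosolic genes minus the level of WT_341 was -0.39 log2 units. Against WT_344 that difference was -0.58 and against WT_343 -1.01 log2 units. For mitochondrial genes without Lars2 the differences from WT_341, WT_344 and WT_343 were -0.29, -0.46 and -0.64 log2 units. With Lars2 included they were -0.40, -0.47 and -0.59 log2 units. With the neutrophil level as a covariate the median log2 change was -0.25 for cytosolic and -0.28 for mitochondrial genes, and 3 members passed (Iars, Qars and Tars2, in a fit where 5.50% of all tested genes were called lower). The covariate overlaps with genotype, since every KO library had a higher neutrophil level than every WT library, so genotype and neutrophil level cannot be told apart in this fit.

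**Figure D4:**
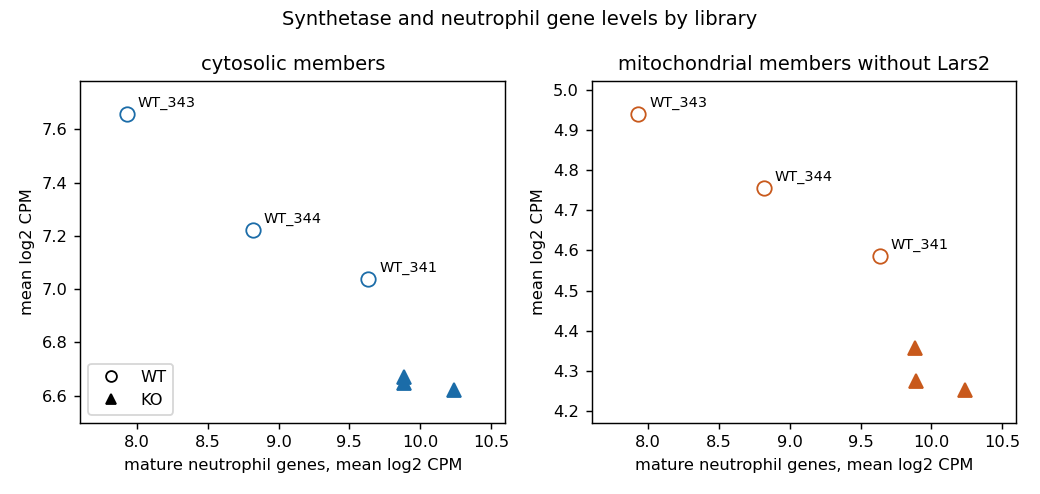
Mean log2 CPM of cytosolic (left) and mitochondrial members without Lars2 (right) against that of 12 mature neutrophil genes, 1 point per library (WT open circles, KO filled triangles). WT libraries run from high synthetase and low neutrophil levels (WT_343) to the reverse (WT_341), and the KO libraries lie lowest, with means that differ from WT_341 by -0.39 (left) and -0.29 (right) log2 units.

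Calls depended on the libraries in the fit more than on the tool. DESeq2 called 20 cytosolic and 12 mitochondrial genes lower and limma-voom 19 and 9. Leaving out KO_339 left 9 and 6, KO_345 10 and 6, KO_340 13 and 7, WT_344 15 and 7, and leaving out WT_341 gave 20 and 12. The share of all tested genes called lower changed too, from 19.9% in the main fit. It was 7.95% without KO_339, 10.3% without KO_345, 10.4% without KO_340, 11.5% without WT_344 and 26.6% without WT_341. The median log2 change of cytosolic genes in these fits was -0.64 to -0.82. Leaving out WT_343 moved it most, to -0.50. That fit called 19 cytosolic and 7 mitochondrial genes lower, and 15.1% of all tested genes. With sex as a covariate (WT_341, KO_339 and KO_340 came from males by Xist counts) 13 cytosolic and 8 mitochondrial genes passed. In that fit 17.3% of all tested genes were called lower. No member was called higher under any of the 14 alternatives, and 35 of 36 had a log2 change below 0 under all of them, Yars2 being the exception. Iars, Qars and Tars2 were called under every alternative. A further 12 members (Dars, Eprs, Farsa, Hars, Kars, Lars, Mars, Ears2, Iars2, Mars2, Nars2 and Rars2) lost their call only with the neutrophil covariate, and Fars2, Lars2, Pars2 and Yars2 were called under none. Aars, Farsb, Gars, Sars, Tars, Wars and Yars lost theirs on omission of any single KO library. These genes also lost it with the neutrophil covariate and with the sex covariate. Scaling shifted the median of all tested genes from 0.01 with TMM to 0.15 under upper-quartile scaling and to 0.11 under scaling by library totals. Relative to that median the cytosolic genes were at -0.70, -0.69 and -0.70. A change of scaling moves all genes by nearly the same amount, so these values could hardly differ. Over the other fits the value ran from -0.27 with the neutrophil covariate to -0.85 without WT_341, and was -0.52 without WT_343.

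**Figure D5:**
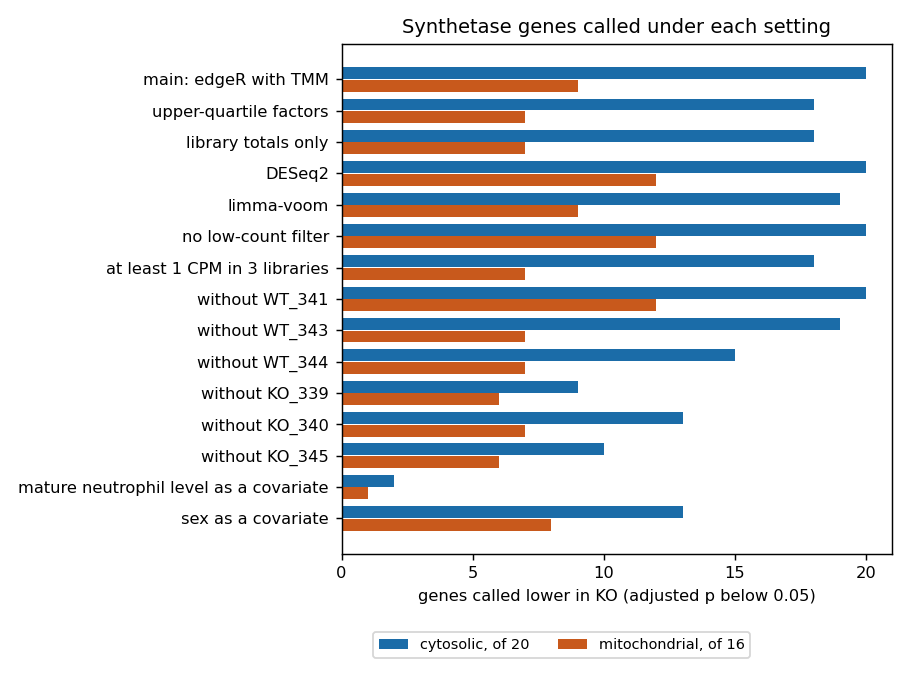
Number of cytosolic (blue, of 20) and mitochondrial (orange, of 16) members called lower in KO at an adjusted p of 0.05 under the main fit and 14 alternatives. Counts run from 20 and 9 in the main fit to 2 and 1 with the neutrophil covariate, and without KO_339 they are 9 and 6. The share of all tested genes called lower in the same fits is 19.9%, 5.50% and 7.95%.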

How the data were processed

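The authors deposited raw read counts per gene symbol for 6 libraries, not normalized, per the file headers and the values. Per the labels' protocols, TRIzol extracts of single mice were made into strand-specific TruSeq messenger RNA libraries, read as pairs of 75 bp. The submitters' processing notes name FastQC, Trimmomatic, STAR, HTSeq and mm10. The sources used here do not give annotation release, strand setting or handling of multi-mapping reads. Groups came from the titles. The main test was the quasi-likelihood test of edgeR 4.0.16 under R 4.3.3 (low counts removed by filterByExpr with minimum count 10 and total 15; TMM; robust glmQLFit and glmQLFTest; Benjamini-Hochberg over 15742 genes; threshold 0.05). The SE is the absolute log2 change over the square root of the F statistic. CPM use TMM-scaled totals, and log2 CPM a prior count of 2. Alternatives used DESeq2 1.42.0, limma 3.58.1, other filters, scalings and covariates. The gene test was tested on simulated data. Positions and exon lengths are from GENCODE M21 (GRCm38). Pair ratios were tested by an exact permutation over 20 assignments. All members are named, and up to 4 genes per related list by adjusted p. Members and lists were chosen with earlier results of these data known. With 3 mice per group, p-values measure the spread between these mice.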

Additional observations from a re-analysis of the deposited data

How the results depend on the processing

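No member was called higher under any alternative. Under the neutrophil covariate the number of synthetase genes changed was 3 (29 in the main analysis), 2 cytosolic (20) and 1 mitochondrial (9), and 5 of the related genes changed (39). The median log2 change was then -0.25 for cytosolic and -0.28 for mitochondrial genes, and the mitochondrial median was -0.32 under upper-quartile scaling and -0.36 under scaling by library totals. With sex as a covariate 13 cytosolic genes changed. Leaving out single libraries gave 15 (without KO_339) to 32 (without WT_341) changed synthetase genes, 9 (without KO_339) to 20 (without WT_341) cytosolic ones and 10 (without KO_339) to 49 (without WT_341) related genes. Omitting KO_345 left 16 synthetase, 10 cytosolic and 20 related genes, KO_340 left 13 cytosolic and 22 related genes, and WT_344 left 24 related genes. Mitochondrial counts were 6 (without KO_339 or KO_345) to 12 (without WT_341). Over all tested genes the share called lower was 19.9% in the main analysis and 5.50% under the neutrophil covariate. With single libraries left out it was 7.95% (without KO_339) to 26.6% (without WT_341). The log2 change of Yars2 (-0.08) turned to 0.066 under upper-quartile scaling, 0.028 under scaling by library totals and 0.38 with the neutrophil covariate, and was -0.25 (without WT_341) to 0.072 (without WT_343) with single libraries left out, and 0.054 without KO_345. Apart from fits with fewer libraries, the cause was not tested. The mean cytosolic minus mitochondrial level changed by -0.17 in the main analysis, by -0.05 (without WT_343) to -0.27 (without WT_341) with single libraries left out, and by -0.29 with the median of genes in place of the mean. It changed by -0.19 without Lars2 and by -0.11 without Lars2 and WT_343, alternatives chosen after seeing the data, as was the comparison of composite element groups without WT_343. Depth did not limit the members, whose lowest count was 788. No paired analysis was made, because the replicate numbers are those of single mice and the labels pair no WT mouse with a KO mouse.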
